A study of Oryza sativa Indica Group with 6 samples.

Results

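The genes described here are those of photosynthesis and chlorophyll on an Agilent rice array. They are the gene probes whose deposited description names a photosystem, chlorophyll, ribulose, Rubisco, the oxygen-evolving complex, plastocyanin, ferredoxin, light harvesting or protochlorophyllide. The rule selected 74 of 21495 gene probes and used no measured value. Of these members, 38 carry the description of a rice sequence, and the others are named after a sequence of another species and are mostly written as "like" that gene. The word ferredoxin also brought in a mitochondrial ferredoxin-like gene, its reductase and enzymes of nitrogen and sulfur assimilation, so the members are not all parts of the photosynthetic apparatus.

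Leaf RNA of the submergence-tolerant rice FR13A and of the susceptible rice IR24 was hybridised together on 6 arrays. The constitutive leaves came from untreated plants 14 days after sowing, and the submerged leaves from plants held under water in transparent bags for 15 min (sampled at 14 days) or for 24 h (sampled at 15 days). Each group had 2 arrays: FR13A was in Cy5 on replicate 1 and in Cy3 on replicate 2. The arrays were scanned on 3 days, and constitutive replicate 2 was the only array of its day. A fit with scan day as a block therefore rests its constitutive level largely on constitutive replicate 1. The labels do not say whether the replicates are separate plants, so the p-values measure the spread between these arrays, which may be technical. No unsubmerged plants of day 15 were among the samples, so 24 h of submergence and 1 day of age cannot be told apart. The text gives log2 ratios of FR13A over IR24, which lie within an array, and normalized log2 levels of each channel, from which changes over time within a genotype were fitted.

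In the light reactions, chlorophyll a/b-binding proteins collect light for photosystem II, which splits water at its oxygen-evolving complex, and for photosystem I, which reduces ferredoxin. Plastocyanin carries electrons between the photosystems, and ferredoxin passes them to NADP+ and to enzymes of nitrogen and sulfur assimilation. Rubisco fixes carbon dioxide with the reducing power and ATP so made, and light-dependent protochlorophyllide oxidoreductase makes the precursor of chlorophyll.

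All 74 members passed the filter on dim probes, and 71 were well above background in all 12 channels. The exceptions were a type I LHCPII probe (AK061272, 4 channels), a ferredoxin-NADP+ oxidoreductase precursor probe (AK072768, 10 channels) and a CP24-like probe (AK108672, 11 channels). Over the arrays, FR13A channels had a median signal over background of 3.03 to 7.07, and IR24 channels 3.57 to 11.4. Among probes described as seed storage or embryogenesis genes, 13 of 18 were kept, and among root, pollen or anther genes 20 of 21. Their summed intensity was 8342 to 8862 in constitutive, 15144 to 17226 in 15 min and 10594 to 12690 in 24 h FR13A channels for the root, pollen or anther list. In IR24 channels it was 8415 to 10017, 14171 to 16351 and 11178 to 15037 at the same times. The summed seed list ran from 6059 to 8965 in FR13A and from 7024 to 14534 in IR24. Their part in the results below was not tested. In bulk leaf RNA, fewer cells of a type and less RNA per cell cannot be told apart.

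Many of these genes were too bright for the scanner. A channel was saturated on at least 1 array for 27 of the 74 members (36.5%), against 128 of 20315 kept probes (0.630%). Light-harvesting genes made up 9 of these and photosystem I genes 5, and 47 members were never saturated. Saturation followed the dye: 125 of 444 Cy5 channels of the members were saturated, against 25 of 444 Cy3 channels. Plastocyanin (AK070447) is an example. Its log2 ratios of FR13A over IR24 on replicates 1 and 2 were -2.14 and 1.12 in constitutive leaves, -0.21 and 1.24 at 15 min and -1.01 and 1.87 at 24 h. The ratio was below 0 on each replicate 1 array and above 0 on each replicate 2 array. In constitutive leaves both genotypes were saturated on both arrays, so these ratios do not give a genotype difference. Rubisco activase OsrcaA2 (AK058310), which keeps Rubisco active, and the antenna gene RCABP89 (AK066762) had the same signs, and on replicate 1 at 15 min and at 24 h they had the same ratios as plastocyanin, -0.21 and -1.01. Over the 27 saturated members, the mean ratio of the replicate 1 arrays was lower than that of the replicate 2 arrays for 24, with a median difference of -0.68. Over the 47 others it was lower for 19, with a median difference of 0.05, and no never saturated member differed by more than 1 between orientations, against 10 saturated ones. For the main fits, counts over the never saturated members are given beside those over all members. Counts under alternative settings are over all members.

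**Figure D1:**
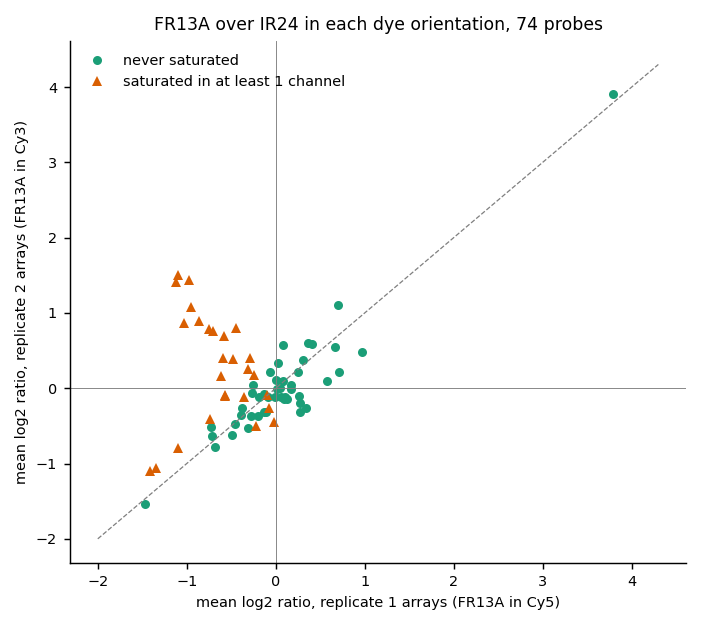
Mean log2 ratio of FR13A over IR24 on the 3 replicate 2 arrays (vertical, FR13A in Cy3) against the 3 replicate 1 arrays (horizontal, FR13A in Cy5) for the 74 members. Circles are the 47 never saturated members, which lie near the dashed line of equality, and triangles the 27 saturated ones, of which 24 lie above it.

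The genotypes differed in a minority of these genes, at a rate close to that of the whole array. Across all times, 6 members were higher and 11 lower in FR13A than in IR24 in limma's moderated test of the ratios (adjusted p under 0.05), which is 17 of 74, beside 20.2% of all 20288 probes tested (10.1% in each direction). The median log2 ratio was -0.03 over the members and 0.00 over all probes. Among the 47 never saturated members, 6 were higher and 7 lower. The 17 calls comprised 7 of 18 Rubisco and ribulose enzymes, 3 of 11 photosystem II genes, 2 of 8 photosystem I genes, 2 of 19 light-harvesting genes, 2 of 11 electron carriers, 1 of 3 chlorophyll synthesis genes and 0 of 4 ferredoxin-dependent enzymes. Among never saturated members, 4 of 13 Rubisco and ribulose enzymes, 3 of 7 photosystem II genes and 1 of 3 photosystem I genes were called. So were 2 of 10 light-harvesting genes, 2 of 8 electron carriers, 1 of 2 chlorophyll synthesis genes and 0 of 4 ferredoxin-dependent enzymes. The count over all 74 members was 4 with global median centring in place of loess, where 5.12% of all probes were called. Leaving out constitutive replicate 2 lowered the count of members and also the share of all probes called.

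**Figure D2:**
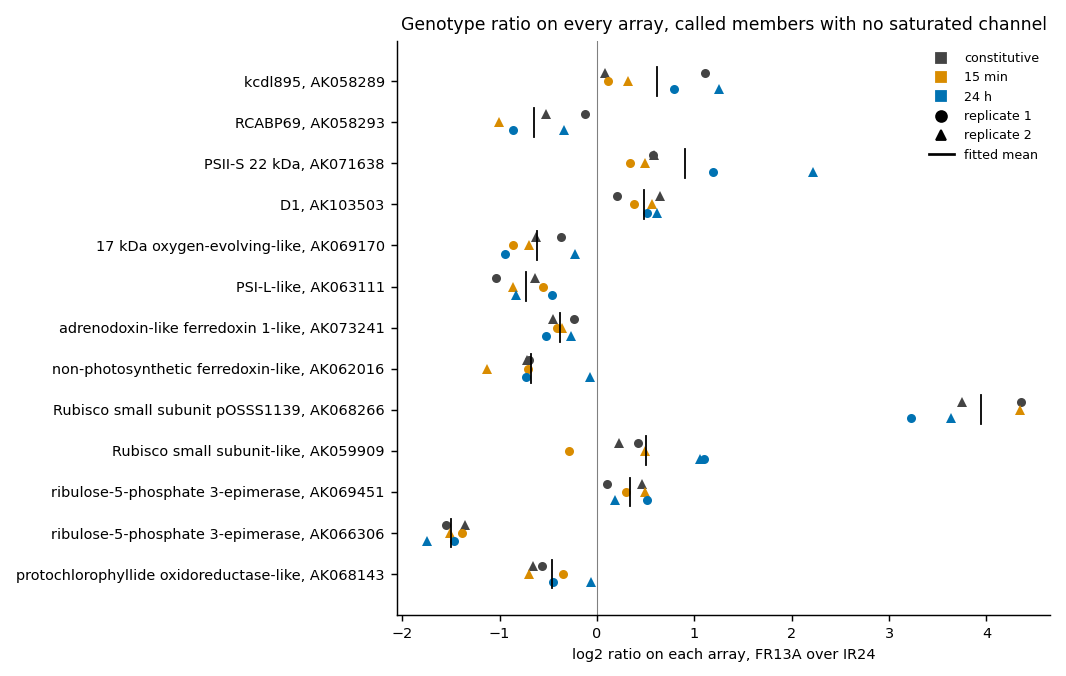
Log2 ratio of FR13A over IR24 on each of the 6 arrays (horizontal) for the 13 never saturated members called across all times. Colours are times, circles replicate 1, triangles replicate 2 and the black bar the fitted mean; the Rubisco small subunit probe AK068266 lies between 3.22 and 4.35, apart from all others.

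The widest difference was in a Rubisco small subunit. The small subunit is encoded by several nuclear genes, and probe AK068266 is described as the rice clone pOSSS1139. Its log2 ratios of FR13A over IR24 were 4.35 and 3.75 in constitutive leaves, 4.35 on the 1 usable array at 15 min (the spot of replicate 1 was marked by the scanner software) and 3.22 and 3.64 at 24 h. All 5 values lay above 3, far from equality. The fitted ratio was 3.94 ± 0.13 (SE), a 15.4-fold higher signal of this probe in FR13A (limma, adjusted p = 0.000167). At single times it was 4.05, 4.35 and 3.43 in constitutive, 15 min and 24 h leaves (limma, adjusted p = 0.00181, 0.00403 and 0.00163). The other probe with the same description, AK070556, read -0.15 and -0.01 in constitutive leaves, 0.52 at 15 min and 0.66 and 0.14 at 24 h. Those values spread around a fitted ratio of 0.28 that was not called, so the probes of this clone do not give the same answer.

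Clone pOSSS2106, another small subunit description, was also read by a pair of probes. The never saturated one, AK099574, had ratios of 2.01 and 0.29 in constitutive leaves, 0.77 and 0.19 at 15 min and -0.63 and 0.14 at 24 h, and was not called. Its replicates in constitutive leaves differed by more than its times did. A small subunit probe described from apple, AK059909, had ratios of 0.42 and 0.22, then -0.29 and 0.49, then 1.10 and 1.06 at constitutive, 15 min and 24 h. Both 24 h values lay above all others. At 24 h FR13A was higher by 1.08 ± 0.19 (SE, limma, adjusted p = 0.0269), and across all times by 0.50, a call kept in 2 of the 6 fits that left out an array. Its 24 h call was lost without any 1 of the 4 constitutive and 24 h arrays (adjusted p 0.0673 to 0.186).

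Ribulose-5-phosphate 3-epimerase, which interconverts pentose phosphates of the Calvin cycle and the oxidative pentose phosphate pathway, went both ways. For AK066306 the ratios were -1.55 and -1.36 in constitutive leaves, -1.39 and -1.51 at 15 min and -1.47 and -1.75 at 24 h. FR13A was lower on all 6 arrays within a narrow range. The fitted ratio across all times was -1.50 ± 0.06 (SE, limma, adjusted p = 0.000117), a 2.83-fold lower signal of this probe in FR13A. It was called at each time with values of -1.45, -1.45 and -1.61. The constitutive call was lost without constitutive replicate 1 (-1.36, adjusted p = 0.0566 in limma). A second probe of the same description, AK064675, averaged -0.17 and was not called. AK069451, described as another rice sequence of the enzyme, was higher in FR13A by 0.34 ± 0.08 (SE, limma, adjusted p = 0.0333), with 6 of 6 ratios above 0, but that call was kept in only 1 of the 6 fits that left out an array.

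The large subunit of Rubisco, encoded in the plastid, was read by 4 probes, 3 of them saturated in part. FR13A was lower on 6 of 6 arrays for AK058623, AK062203 and AK058516, with fitted ratios of -1.25, -1.20 and -0.94 (limma, adjusted p = 0.015, 0.0241 and 0.0485). In AK058623 the IR24 channel was saturated on 5 arrays and the FR13A channel on 1. IR24 was saturated on both arrays at 15 min and at 24 h. At 15 min the mean normalized log2 level was 14.42 in FR13A and 15.64 in IR24, 2.32-fold lower in FR13A. At 24 h it was 14.13 in FR13A and 15.41 in IR24, 2.43-fold lower in FR13A. The levels were normalized after saturation, so these folds are not strict limits. These single-time ratios were not called (limma, adjusted p = 0.168 and 0.13). The never saturated probe AK105600 of the same description had ratios between -0.49 and 0.14 and a fitted ratio of -0.23 that was not called. Of the 6 fits that left out an array, AK058623 kept its call in 5, AK062203 in 4 and AK058516 in 1. Without constitutive replicate 2, the adjusted p was 0.0664 for AK058623, 0.0873 for AK062203 and 0.149 for AK058516. The activase, Rubisco's chaperonin-like binding proteins and its methyltransferase-like enzyme gave no call. The activase was saturated in 10 channels, so a difference in it could be missed.

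In photosystem II, the 22 kDa PSII-S protein, which dissipates excess light as heat, was higher in FR13A for 1 of its probes, the dimmer one. AK071638 had ratios of 0.58 and 0.59 in constitutive leaves, 0.34 and 0.49 at 15 min and 1.19 and 2.22 at 24 h. FR13A was higher on all 6 arrays, most at 24 h, where the arrays differed by about 1. The ratio was 0.90 ± 0.13 across all times (SE, limma, adjusted p = 0.00834) and 1.70 ± 0.23 at 24 h (SE, limma, adjusted p = 0.0124). Both calls held in each of the 6 fits that left out an array. Among all 14 alternative fits, the call across all times was lost in 1 (limma, adjusted p = 0.0525). The 24 h call was lost in 2 (limma, highest adjusted p = 0.108), 1 of them the scan day block (0.0535). The other PSII-S probe, AK058284, saturated in 1 channel, averaged -0.36 and was not called. D1 (AK103503), a core protein of the photosystem II reaction centre, had ratios of 0.21 to 0.64 and was higher in FR13A by 0.49 ± 0.07 (SE, limma, adjusted p = 0.00881). That call was lost in 1 of 14 alternative fits (limma, adjusted p = 0.179). The 17 kDa oxygen-evolving-like probe AK069170, for a protein that stabilises water splitting, had ratios of -0.94 to -0.23 and was lower in FR13A by a fitted -0.62 ± 0.10 (SE, limma, adjusted p = 0.0121, and 0.0585 without constitutive replicate 2).

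In photosystem I, 2 genes were lower in FR13A. PSI-L-like AK063111, for the subunit that helps photosystem I bind mobile antenna, had ratios of -1.04 and -0.64 in constitutive leaves, -0.55 and -0.86 at 15 min and -0.46 and -0.83 at 24 h. FR13A was lower on all 6 arrays (-0.73 ± 0.09 SE, limma, adjusted p = 0.00408), and the constitutive value of -0.84 was called too (limma, adjusted p = 0.0379), though not without constitutive replicate 1 (0.312), constitutive replicate 2 (0.103) or either 24 h array (0.0587). PSI-H (AK060254), its neighbour at that site, was lower by a fitted -0.57, with 1 IR24 channel saturated, a call kept in 3 of the 6 fits that left out an array. Among light-harvesting genes, kcdl895 (AK058289) was higher with a fitted ratio of 0.61 and RCABP69 (AK058293) lower with -0.64, and these calls were kept in 1 and 2 of the 6 fits that left out an array. The remaining 17 light-harvesting members were not called, but 9 of them were saturated in at least 1 channel, so a difference there could be missed.

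Of the electron carriers, a ferredoxin described as non-photosynthetic from Citrus (AK062016) was lower in FR13A on 6 of 6 arrays, with ratios of -1.13 to -0.07 and a fit of -0.68 ± 0.11 (SE, limma, adjusted p = 0.0094). An adrenodoxin-like ferredoxin described from Arabidopsis (AK073241), of a mitochondrial kind, was lower with -0.38 ± 0.06 (SE, limma, adjusted p = 0.0106) on 6 of 6 arrays. Of 14 alternative fits, the call of AK062016 was lost in 2 (limma, highest adjusted p = 0.0635) and that of AK073241 in 1 (limma, adjusted p = 0.216). Plastocyanin, rice ferredoxin (AK061654), root ferredoxin (AK103416) and the ferredoxin-NADP+ reductases were not called. Plastocyanin and rice ferredoxin were saturated in 10 and 7 channels, so a difference in them could be missed. In chlorophyll synthesis, protochlorophyllide oxidoreductase-like AK068143 was lower in FR13A across all times (-0.46 ± 0.08 SE, limma, adjusted p = 0.0122), with adjusted p of 0.0501 and 0.0565 when constitutive replicate 1 or 2 was left out. The second such probe, AK065236, was lower in constitutive FR13A leaves (ratios -0.86 and -0.81, fit -0.83, adjusted p = 0.0442 in limma), saturated in 3 channels; that call was lost without either constitutive array (0.313 and 0.204) or either 15 min array (0.057). Chlorophyll synthase-like AK060912, the enzyme that adds the phytol tail, had ratios of -0.70 to 0.57 and was not called.

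At single times fewer members were called. In constitutive leaves 1 was higher and 3 lower in FR13A, 5.41% of the members beside 6.15% of all probes (3.17% higher and 2.98% lower). At 15 min 1 was higher and 1 lower (2.70% beside 5.33%, of which 2.42% higher and 2.91% lower), and at 24 h 3 were higher and 1 lower (5.41% beside 7.63%, of which 3.49% higher and 4.14% lower). Among the 47 never saturated members, 1 was higher and 2 lower in constitutive leaves, 1 higher and 1 lower at 15 min and 3 higher and 1 lower at 24 h. AK068266 and AK066306 were called at all 3 times. Leaving out either constitutive array gave fewer constitutive calls, and the share of all probes called fell too. The 15 min count was lower without 15 min replicate 2 and higher without either 24 h array, while the share of all probes fell in each.

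**Figure D3:**
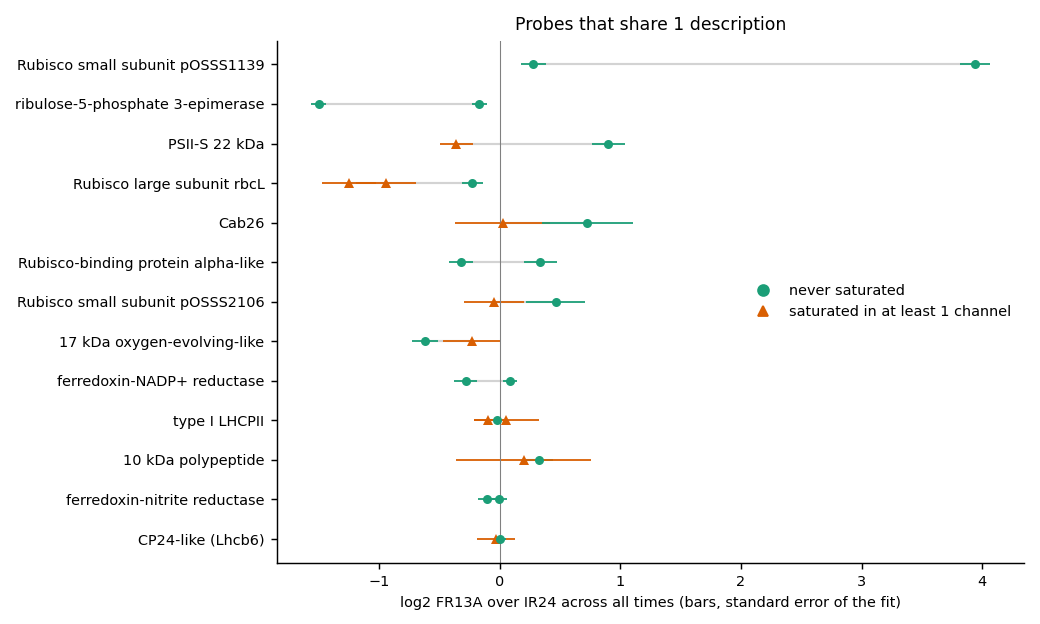
Log2 ratio of FR13A over IR24 across all times (horizontal, bars are the standard error of the fit) for the 28 members that share a description with another member, 1 row per description. Circles are never saturated and triangles saturated probes; the pOSSS1139 probes lie at 0.28 and 3.94.

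Some probes with a shared description gave unlike ratios, though no test compared them. Altogether 28 members fall under 13 shared descriptions. The range of the fitted ratio within a description was 3.66 for pOSSS1139, 1.33 for the epimerase, 1.26 for PSII-S, 1.02 for rbcL and 0.04 to 0.70 for the other 9. In 5 of the 13 at least 1 probe was called, and in each of these at least 1 was not. Probe sequences were not used here, and whether such probes read 1 gene or several close copies was not tested. Whether a probe binds RNA of both genotypes alike was not tested either.

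No member was called after 15 min under water, and with 2 arrays a group small changes would be missed. In FR13A 0 of 69 members were called against constitutive leaves, beside 1.58% of all 18907 probes in that fit (1.29% higher, 0.296% lower), and in IR24 0 of 69, beside 2.08% (1.89% higher, 0.19% lower). The IR24 fit without 15 min replicate 1 gave a call, while the share of all probes called fell. At an unadjusted p under 0.05, limma gave 1 member in each genotype (1.45% of 69, beside 11% of all probes in FR13A and 10.3% in IR24): the non-photosynthetic ferredoxin-like AK062016 in FR13A (-0.49) and the antenna gene Cab26 (AK060800) in IR24 (1.90). The fits within a genotype hold 69 members, since 5 had a marked spot. Of the 69, 42 were never saturated, and in the others saturation could hide a change.

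After 24 h, most calls were decreases, and the share of members called was close to that of all probes. In FR13A 1 member was higher and 7 were lower at 24 h than in constitutive leaves, 11.6% of 69 beside 10.4% of all probes (4.49% higher, 5.89% lower). In IR24 0 were higher and 7 lower, 10.1% beside 9.47% (4.82% higher, 4.65% lower). The median change was -0.19 over the members in FR13A and -0.34 in IR24, against 0.00 over all probes in both. Of the 42 never saturated members in the fit, 1 was called higher and 4 lower in FR13A, and 0 higher and 5 lower in IR24. Of these 42, 28 were below 0 in FR13A and 30 in IR24, with medians of -0.19 and -0.16. Of all 18907 probes, 9544 were below 0 in FR13A and 9470 in IR24. Of the 27 saturated ones, 14 were below 0 in FR13A and 26 in IR24. A decrease was called for 5 members in both genotypes, 5 of the 8 FR13A calls and 5 of the 7 IR24 calls. The same overlap was not counted over all probes, so it is no result about these members. The genotypes share every array, so a shift of 1 array moves both.

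**Figure D4:**
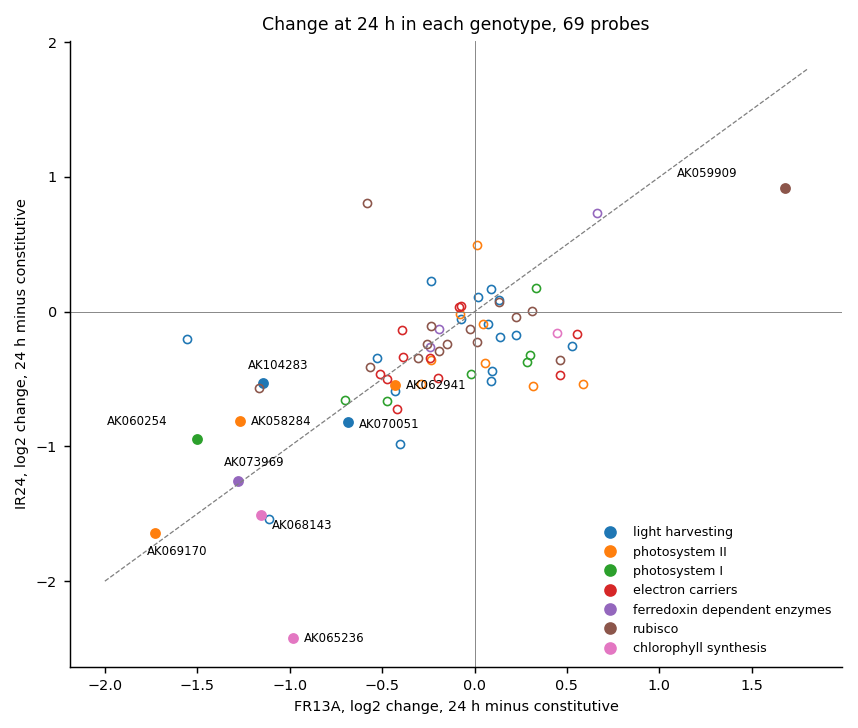
Log2 change from constitutive leaves to 24 h of submergence in IR24 (vertical) against FR13A (horizontal) for the 69 members of the fit, coloured by role. Filled points, labelled with the probe's gene, were called in at least 1 genotype; most lie below and left of 0.

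Protochlorophyllide oxidoreductase, which carries out the light-dependent step of chlorophyll synthesis, fell in both genotypes for 1 of its probes. AK068143 had log2 levels of 14.45 and 14.31 in constitutive, 14.41 and 14.25 in 15 min and 13.17 and 13.28 in 24 h FR13A leaves. In IR24 the levels were 15.01 and 14.97, then 14.76 and 14.95, then 13.62 and 13.35. In each genotype both 24 h values lay below all earlier ones. The change from constitutive to 24 h was -1.15 ± 0.16 in FR13A (SE, limma, adjusted p = 0.00211) and -1.51 ± 0.16 in IR24 (SE, limma, adjusted p = 0.00054), a 2.22-fold and a 2.84-fold decrease. Both calls held in every fit that left out an array and with scan day as a block. The block is not a check apart from leaving out constitutive replicate 2, which was alone on its scan day. Between the constitutive and 24 h arrays scanned on the same day, the changes were -1.17 in FR13A and -1.66 in IR24.

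The second oxidoreductase probe, AK065236, fell in IR24. Its levels in FR13A were 15.12 and 14.47 in constitutive leaves, 14.80 and 14.93 at 15 min and 14.14 and 13.48 at 24 h. In IR24 they were 15.98 and 15.27, then 15.26 and 15.43, then 13.87 and 12.55. The 24 h values lay below the earlier ones in both genotypes. The change was -0.98 ± 0.37 in FR13A, not called (SE, limma, adjusted p = 0.143), and -2.42 ± 0.37 in IR24 (SE, limma, adjusted p = 0.00341, and 0.0509 without constitutive replicate 1). In its 3 saturated channels the scanner cut off the intensity, so the level there is not exact. The ratio of FR13A over IR24 was -0.86 and -0.81 in constitutive leaves, -0.47 and -0.49 at 15 min and 0.27 and 0.94 at 24 h, and the test of that change gave 1.44 ± 0.23 (SE), the smallest p of any member, which was not called (limma, adjusted p = 0.179).

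**Figure D5:**
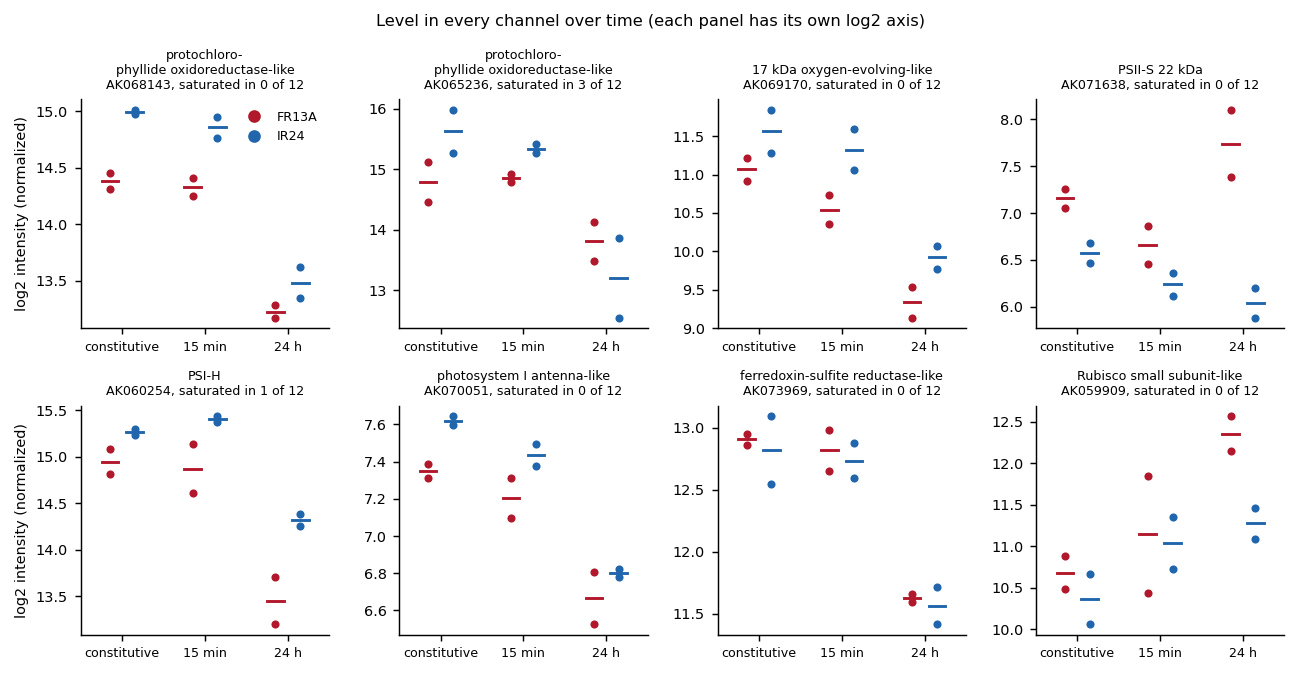
Normalized log2 intensity of 8 members in every channel (points) with the mean of the 2 replicates (bars) at each time, FR13A left of IR24. The oxidoreductase, 17 kDa, PSI-H, antenna-like and sulfite reductase probes are lowest at 24 h in both genotypes, and the Rubisco small subunit-like probe is highest there; levels are not comparable between panels.

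In photosystem II, the 17 kDa oxygen-evolving-like probe AK069170 fell in both genotypes. Its FR13A levels were 10.92 and 11.22 in constitutive leaves, 10.73 and 10.36 at 15 min and 9.13 and 9.54 at 24 h, and its IR24 levels 11.28 and 11.84, then 11.59 and 11.06, then 10.08 and 9.77. The 24 h values lay below all others in each genotype. The change was -1.73 ± 0.27 in FR13A and -1.64 ± 0.27 in IR24 (SE, limma, adjusted p = 0.0033 and 0.00443), a 3.32-fold and a 3.12-fold decrease. The IR24 call gave an adjusted p of 0.0591 without constitutive replicate 2. The other probe of this description, AK058793, saturated in 7 channels, changed by -0.29 and -0.54 and was not called. PsbO-like AK062941, for the manganese-stabilising 33 kDa protein, was lower in IR24 by -0.55 (limma, adjusted p = 0.0306), a call lost without any 1 of the 6 arrays (adjusted p 0.0548 to 0.224). In FR13A it changed by -0.43 and was not called.

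The PSII-S probes parted at 24 h. AK071638 had FR13A levels of 7.26 and 7.06 in constitutive leaves, 6.46 and 6.86 at 15 min and 7.38 and 8.10 at 24 h. IR24 levels were 6.68 and 6.47, then 6.12 and 6.36, then 6.20 and 5.88. This dim probe was well above background in every channel, but its 24 h IR24 levels were near the floor. The LHCPII probe AK061272, well above background in 2 channels of each genotype, read 6.09 and 6.21 there. In FR13A both 24 h values lay above all others, while in IR24 the 24 h and 15 min values overlapped below the constitutive ones. Only the FR13A change from 15 min to 24 h was called (1.09 ± 0.29 SE, limma, adjusted p = 0.0388, a call kept in 1 of the 6 fits that left out an array), and the change in the genotype ratio from constitutive to 24 h, 1.12 ± 0.33, was not (SE, limma, adjusted p = 0.503). AK058284 had levels of 14.77 and 14.73, then 14.75 and 14.08, then 13.10 and 13.87 at the 3 times in FR13A, and of 14.66 and 15.24, then 14.61 and 14.67, then 14.02 and 14.27 in IR24. It was lowest at 24 h in both genotypes and changed by -1.27 in FR13A (limma, adjusted p = 0.0343) and -0.81 in IR24 (limma, adjusted p = 0.173). Its FR13A call was lost without constitutive replicate 1, constitutive replicate 2 or 24 h replicate 1 (adjusted p 0.122, 0.135 and 0.297) and with scan day as a block (0.303).

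Around photosystem I, the PSI-H subunit and a pair of antenna genes gave decreases. PSI-H (AK060254) had FR13A levels of 15.09 and 14.81 in constitutive leaves, 14.61 and 15.14 at 15 min and 13.20 and 13.70 at 24 h, and IR24 levels of 15.31 and 15.23, then 15.44 and 15.38, then 14.38 and 14.26. No 24 h value reached the earlier range in its genotype. The change was -1.50 ± 0.25 in FR13A and -0.95 ± 0.25 in IR24 (SE, limma, adjusted p = 0.0047 and 0.0421). With scan day as a block the adjusted p was 0.0627 in FR13A and 0.225 in IR24. The FR13A call was lost without constitutive replicate 1 or 24 h replicate 1, and the IR24 call without any 1 of the constitutive and 24 h arrays. Lhca (AK104283), a photosystem I antenna protein, had levels of 15.13 and 15.37 in constitutive, 15.12 and 14.71 in 15 min and 14.25 and 13.96 in 24 h FR13A leaves, and of 15.00 and 15.21, then 15.06 and 15.12, then 14.67 and 14.49 in IR24, with 3 channels saturated. The 24 h values were again the lowest of each genotype. Lhca changed by -1.15 in FR13A (limma, adjusted p = 0.00388) and -0.53 in IR24, where it was not called (limma, adjusted p = 0.114). Without constitutive replicate 2 or 24 h replicate 2 the FR13A adjusted p was 0.0624 and 0.0515. The barley-like antenna probe AK070051 had levels of 7.31 and 7.39, then 7.31 and 7.10, then 6.81 and 6.53 at the 3 times in FR13A, and of 7.60 and 7.64, then 7.37 and 7.50, then 6.78 and 6.82 in IR24. It changed by -0.68 and -0.82 (limma, adjusted p = 0.0223 and 0.0102), both lost without any 1 of the constitutive and 24 h arrays (FR13A 0.0621 to 0.187, IR24 0.0623 to 0.0848) and with scan day as a block (0.172 and 0.104). The other light-harvesting members of the fit gave no call, and in those with saturated channels a change could be hidden. RCABP69 (AK058293) was left out of it for a marked spot on a 15 min array; with marked spots kept it changed by -1.56 in FR13A and -1.28 in IR24 (limma, adjusted p = 0.0114 and 0.0297).

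Among enzymes that draw on ferredoxin, sulfite reductase-like AK073969, of sulfur assimilation, fell in both genotypes. FR13A levels were 12.86 and 12.95 in constitutive leaves, 12.98 and 12.65 at 15 min and 11.66 and 11.60 at 24 h. IR24 levels were 13.09 and 12.54, then 12.87 and 12.60, then 11.71 and 11.41. The 24 h groups did not overlap the earlier ones. The change was -1.28 ± 0.22 in FR13A and -1.25 ± 0.22 in IR24 (SE, limma, adjusted p = 0.0058 and 0.00659), and the adjusted p was 0.0521 and 0.0544 in FR13A without 24 h replicates 1 and 2 and 0.0939 in IR24 without 24 h replicate 2. Of the nitrite reductase probes, AK064778 changed by 0.66 in FR13A and 0.73 in IR24 and AK061893 by -0.24 and -0.26, none of them called. No electron carrier was called in either genotype. In each, 9 of 11 were below 0, beside 9544 of 18907 probes in FR13A and 9470 in IR24. Of the 8 never saturated carriers, 7 were below 0 in FR13A and 6 in IR24.

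Of the 15 Rubisco and ribulose members in the fit, 1 was called, as an increase. The small subunit-like probe AK059909 had FR13A levels of 10.48 and 10.88 in constitutive leaves, 10.44 and 11.85 at 15 min and 12.57 and 12.15 at 24 h, and IR24 levels of 10.06 and 10.66, then 10.73 and 11.35, then 11.47 and 11.09. In both genotypes 24 h lay above constitutive, while 15 min overlapped the 24 h range in IR24. The change was 1.68 ± 0.38 in FR13A (SE, limma, adjusted p = 0.0228), a 3.20-fold increase, and 0.92 ± 0.38 in IR24, not called (SE, limma, adjusted p = 0.199). The FR13A call was lost without any 1 of the 4 constitutive and 24 h arrays (adjusted p 0.0915 to 0.198). In FR13A 9 of the 15 were below 0, and in IR24 11, beside 9544 and 9470 of all 18907 probes. Of the 10 never saturated ones, 6 were below 0 in each genotype.

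Both pOSSS1139 small subunit probes were outside that fit, each for a marked spot on replicate 1 at 15 min. The constitutive and 24 h spots were not marked. AK068266 had levels of 10.58 and 11.16 in 24 h FR13A leaves, against 12.71 and 12.55 in constitutive ones, and of 7.36 and 7.52 in 24 h IR24 leaves, against 8.36 and 8.80 in constitutive ones. AK070556 had 14.15 and 13.69 in 24 h FR13A leaves, against 12.45 and 12.32 in constitutive ones, and 13.49 and 13.55 in 24 h IR24 leaves, against 12.60 and 12.33 in constitutive ones. At 24 h the first was below and the second above its constitutive range in both genotypes. With marked spots kept, an alternative chosen after seeing the data, AK068266 changed by -1.76 ± 0.36 in FR13A (SE, limma, adjusted p = 0.014) and -1.14 ± 0.36 in IR24, not called (SE, limma, adjusted p = 0.0876). AK070556 changed by 1.54 ± 0.22 in FR13A and 1.05 ± 0.22 in IR24 (SE, limma, adjusted p = 0.00237 and 0.0161). The Rubisco-binding protein beta-like AK101334 and psaB-like AK059927, also left out, gave no call in that alternative. It called 11 of 74 members in FR13A and 9 in IR24, beside 9.88% and 8.71% of all probes.

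With scan day as a block, the FR13A count was 4 in place of 8 and the IR24 count 3 in place of 7, and all-probe shares were 2.97% and 2.96%. Constitutive replicate 2 was alone on its scan day, so the block acts much like leaving that array out. In each genotype fewer members were called when any 1 constitutive or 24 h array was left out. The share of all probes called was lower in each of these fits too.

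Between 15 min and 24 h, which shares the 24 h arrays with the comparison above, 1 member was higher and 6 lower in FR13A (10.1% beside 11.6% of all probes, of which 4.94% higher and 6.7% lower) and 0 were higher and 6 lower in IR24 (8.70% beside 10.2%, of which 4.18% higher and 6% lower). AK068143 changed by -1.11 in FR13A and -1.37 in IR24, AK069170 by -1.21 and -1.40, AK060254 by -1.42 and -1.09, and AK073969 by -1.19 and -1.17. Among the 42 never saturated members, 1 was higher and 4 lower in FR13A, and 0 higher and 4 lower in IR24. Calls in 1 genotype were PSII-S AK071638 (1.09), AK104283 and the epimerase AK064675 (-0.57) in FR13A, and AK065236 (-2.14) and AK070051 (-0.63) in IR24. Of the 6 fits that left out an array, AK068143 kept its call in 6 in each genotype, AK065236 in 6, AK060254 in 5 in FR13A and 2 in IR24, AK069170 in 4 in each, AK073969 in 3 in each, AK104283 in 3, AK064675 and AK071638 in 1 and AK070051 in 0. Without either 24 h array fewer members were called in each genotype, and the share of all probes called fell too.

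Whether the genotypes changed differently was tested on the ratios, and no member was called. The background was 0% of probes for 15 min against constitutive, 0.108% for 24 h against constitutive (0.0345% higher, 0.0739% lower) and 0.0838% for 24 h against 15 min (0.0296% higher, 0.0542% lower). At an unadjusted p under 0.05 limma gave 1, 6 and 4 members (1.35%, 8.11% and 5.41%), beside 2.11%, 6.96% and 5.71% of all probes. Among the 47 never saturated members it gave 1, 4 and 3 (2.13%, 8.51% and 6.38%). For 24 h against constitutive the 6 members were AK065236 (1.44), PSII-S AK071638 (1.12), the Rubisco small subunit-like AK059909 (0.76), the Rubisco-binding protein beta-like AK101334 (0.57), Lhca AK104283 (-0.62) and Cab16-like AK066997 (-0.46). A decrease called in 1 genotype alone is thus not shown to differ between them.

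Other genes of these pathways, chosen by description, were counted in the same way at 24 h, where 10.4% of all probes were called in FR13A (4.49% higher, 5.89% lower) and 9.47% in IR24 (4.82% higher, 4.65% lower). The lists are short, and shares near these are no result about a list. In chlorophyll synthesis before and after the oxidoreductase step, 0 of 14 were higher and 2 lower in FR13A, and 0 were higher and 3 lower in IR24. A magnesium chelatase subunit-like gene (AK067323), of the enzyme that inserts magnesium into the ring, changed by -1.78 and -1.73 (limma, adjusted p = 0.000266 and 0.000297). Glutamyl-tRNA reductase (AK099393), the first committed enzyme of the pathway, changed by -1.25 and -1.32 (limma, adjusted p = 0.00749 and 0.00582). The median change of this list was -0.22 in FR13A and -0.30 in IR24.

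In the Calvin cycle beyond Rubisco, 0 of 8 were higher and 3 lower in FR13A, and 0 were higher and 2 lower in IR24. Ribose-5-phosphate isomerase-like AK060861 changed by -1.25 and -1.14 and plastid transketolase-like AK067452 by -1.43 and -1.24, both of them enzymes that rebuild the carbon dioxide acceptor. Of 10 photorespiration genes, which salvage the product of Rubisco's reaction with oxygen, 3 were lower in each genotype and 0 higher. A putative glycolate oxidase (AK071738) changed by -1.07 and -1.25 and hydroxypyruvate reductase-like AK072105 by -0.92 and -0.94. Of 26 other thylakoid and chloroplast membrane genes, 1 was higher and 2 lower in FR13A, and 1 was higher and 4 lower in IR24. The one that rose, Tic55-like AK105616, a Rieske protein of the chloroplast import machinery, changed by 1.58 and 2.47 (limma, adjusted p = 0.00606 and 0.000592).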

How the data were processed

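Total leaf RNA was amplified, labelled and hybridised to 6 Agilent rice arrays of 22575 spots, with FR13A and IR24 on each array. Per the file headers, the deposited scanner files hold mean and background intensities of both dyes and processed intensities that the scanner software had background-subtracted and dye-normalized. The deposited log10 ratios are red over green, per the file headers, and the deposited series table holds log10 ratios turned to FR13A over IR24 (correlation 1 or -1 with the scanner ratio by orientation). Per the submitters' processing notes, Agilent Feature Extraction was used.

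Intensities were corrected with normexp (offset 50) and loess within arrays in limma 3.58.1 (R 4.3.3), with controls at weight 0 and marked spots left out. Of 21495 gene probes, 20315 passed the filter, which asked for 2 or more arrays with either channel well above background. Log2 ratios were fitted by time. Changes within a genotype came from a separate-channel fit of 18907 probes after quantile scaling of the mean intensities, with an intraspot correlation of 0.492. P-values are two-sided and Benjamini-Hochberg adjusted over all probes tested, with calls at values below 0.05. Fits that left out an array, or had a block, kept that correlation. The scripts were tested on simulated data. With 6 arrays, their number limits the precision.

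Members and lists were chosen with earlier results of these data known. Members could be named freely; other lists gave at most 3 probes with the smallest p for each comparison. Same-numbered arrays shared a dye orientation. Their deviations correlated by 0.0938 for constitutive and 15 min, 0.0625 for constitutive and 24 h and 0.401 for 15 min and 24 h. In the last case the same-numbered arrays also shared a scan day. The main fits did not pair the arrays, and so leave that shared deviation out of account. Alternatives were global median centring, the scanner ratios and signals, other filters, quantile scaling, replicate and scan day blocks, left-out arrays and, chosen after seeing the data, marked spots kept and saturated spots left out. Probe sequences and coordinates were not used here, and none of the array accessions matched the RefSeq table.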

Additional observations from a re-analysis of the deposited data

How the results depend on the processing

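Counts of members called moved by more than 1.5 times under these alternatives. With global median centring, 4 were called across all times (17 with loess), 2 in constitutive leaves (4) and 2 at 24 h (4). The shares of all probes called moved too, to 5.12% (20.2% with loess), 1.18% (6.15%) and 1.51% (7.63%). The replicate block, which is dye orientation, gave 2 in constitutive leaves, and scanner ratios gave 5 at 15 min (2 with loess). All-probe shares there were 6.2% (6.15% without the block) and 7.66% (5.33% with loess). With scan day as a block, the changes from constitutive to 24 h gave 4 in FR13A (8) and 3 in IR24 (7). All-probe shares were 2.97% (10.4% without the block) and 2.96% (9.47%). With saturated spots left out, the fit within a genotype drops every probe with a saturated channel. FR13A then gave 5, the count of never saturated members called in the main fit, while the all-probe share stayed at 10.4%. The replicate block left the count within 1.5 times elsewhere: 15 across all times, 2 at 15 min, 4 at 24 h, and for constitutive to 24 h 8 in FR13A and 7 in IR24. The cause of the other shifts was not tested.

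Leaving out 1 array gave 8 to 16 calls across all times, 1 to 4 in constitutive leaves, 1 to 4 at 15 min and 3 to 5 at 24 h. For constitutive to 24 h it gave 4 to 12 in FR13A and 3 to 10 in IR24. For 15 min to 24 h it gave 3 to 7 in FR13A and 2 to 5 in IR24. For constitutive to 15 min it gave 0 in FR13A and 0 to 1 in IR24, and for changes of the ratio 0. The share of all probes called also moved with the array left out, so these ranges are not particular to the members. None of the 55 called results of single members changed direction in the alternatives run for them. Named results that were not called were not rerun singly. Saturation limits 27 of the 74 members, of which 24 had a lower mean ratio on replicate 1 than on replicate 2.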
